A study of Mus musculus with 52 samples.

Results

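EpiLC-only promoter enhancers are regions listed as enhancers of mouse epiblast-like cells (EpiLCs) that share no base with an enhancer of mouse embryonic stem cells (mESCs) and that lie at a gene start. They were chosen as EpiLC enhancers of 10000 bp or less that overlap no listed mESC enhancer and whose centre lies within 1 kb of a transcription start site (TSS), the 5′ end of an interval in the deposited gene table. The rule gave 2548 regions, which are 15.4% of the 16576 EpiLC enhancers and 20.8% of the 12236 EpiLC-only enhancers of that length. The 2 enhancer lists came from separate earlier publications, were made by different laboratories and hold 16576 EpiLC and 8794 mESC regions. "EpiLC-only" therefore means absent from the mESC list, and does not say that the promoter was inactive in mESCs.

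The study, with 52 chromatin immunoprecipitation libraries on a C57BL6/129Sv background, mapped histone marks, RNA polymerase II, Med1 and histone H3.3. EpiLCs were compared with naive mESCs, cultured in LIF plus 2 inhibitors (2i), from which they were derived over 48 hours. The lines carried histone H3 with lysine 27 changed to arginine in the canonical genes (cK27R) or in all H3 genes (pK27R), a Suz12 knockout (SUZ12KO), an H3.3 knockout (H3-3KO) or an H3.3 knockout with a wild-type add-back (pK27WT), and ABE was the control line. In the H3.3 libraries the pK27R clones are labelled as knockout with K27R add-back. The tables analysed here are region lists with 0 columns of values per library, so no genotype or antibody is compared below and depth is unknown. Clones of cK27R, pK27R and pK27WT numbered 2 each. Every percentage below is a complete count over fixed lists, has no replicate spread and was given no test.

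EpiLCs model the formative epiblast, the state between naive pluripotency and gastrulation. Enhancers in this list were defined by acetylation of H3 lysine 27, monomethylation of H3 lysine 4 and binding of the acetyltransferase p300. Active promoters also carry acetylated H3 lysine 27 and can bind p300. Most vertebrate housekeeping promoters lie in CpG islands, stretches where the CG dinucleotide has escaped the loss seen elsewhere in the genome, and bind factors such as NRF1, the ETS protein GABPA, YY1 and SP1. A pair of genes that start close together on opposite strands, called a divergent pair, can share one such island.

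The promoters below show the sequence classes found under these regions. Each runs from 250 bases before the TSS to 50 bases after it, in mm10 coordinates, read from the RefSeq GRCm38.p6 genome on the strand of the gene. In the first set, capitals mark motif letters on either strand for NRF1 (CGCATGCG), the ETS family (CCGGAAGT), YY1 (AAGATGGCG), SP and KLF factors (GGGCGG), CREB and ATF factors (TGACGTCA), NFY (AGCCAAT) and POU factors (ATTTGCAT), for the motifs named here beside each gene. Mrps27, a mitochondrial ribosomal protein gene at chr13:99344536-99344835 (plus strand), holds ETS and YY1 letters, and so does the proteasome subunit gene Psmb7 at chr2:38643857-38644156 (minus strand), which also has SP/KLF letters. Polr2b, the gene of the second largest RNA polymerase II subunit, at chr5:77310234-77310533 (plus strand), holds NRF1 and SP/KLF letters. The histone gene H2bc4 at chr13:23683949-23684248 (plus strand) holds NFY and POU letters, and Fau, which encodes a ribosomal protein fused to a ubiquitin-like protein, at chr19:6057638-6057937 (plus strand), holds SP/KLF and CREB/ATF letters.
Mrps27: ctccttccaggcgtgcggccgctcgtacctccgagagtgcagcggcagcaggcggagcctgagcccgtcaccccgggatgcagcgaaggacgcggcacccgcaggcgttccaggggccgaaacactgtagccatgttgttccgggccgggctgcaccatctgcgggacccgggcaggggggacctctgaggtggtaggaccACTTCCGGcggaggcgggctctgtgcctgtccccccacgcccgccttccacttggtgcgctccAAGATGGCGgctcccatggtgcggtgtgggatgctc
Psmb7: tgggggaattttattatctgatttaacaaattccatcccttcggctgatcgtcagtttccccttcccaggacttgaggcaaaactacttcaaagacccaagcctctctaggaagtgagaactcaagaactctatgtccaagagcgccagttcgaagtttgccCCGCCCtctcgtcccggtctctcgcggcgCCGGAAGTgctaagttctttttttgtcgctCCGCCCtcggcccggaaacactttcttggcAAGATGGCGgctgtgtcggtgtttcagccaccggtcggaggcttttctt
Polr2b: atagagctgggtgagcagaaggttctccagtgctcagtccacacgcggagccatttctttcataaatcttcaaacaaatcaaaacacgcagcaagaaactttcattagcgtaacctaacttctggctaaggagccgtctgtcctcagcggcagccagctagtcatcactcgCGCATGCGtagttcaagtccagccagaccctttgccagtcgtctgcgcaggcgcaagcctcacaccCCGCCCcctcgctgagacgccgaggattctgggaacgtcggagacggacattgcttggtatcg
H2bc4: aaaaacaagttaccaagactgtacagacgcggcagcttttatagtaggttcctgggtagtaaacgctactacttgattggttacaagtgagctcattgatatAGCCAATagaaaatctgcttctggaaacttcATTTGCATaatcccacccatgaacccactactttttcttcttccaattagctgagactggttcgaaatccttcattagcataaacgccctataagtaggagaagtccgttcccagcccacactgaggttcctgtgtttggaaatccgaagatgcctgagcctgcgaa
Fau: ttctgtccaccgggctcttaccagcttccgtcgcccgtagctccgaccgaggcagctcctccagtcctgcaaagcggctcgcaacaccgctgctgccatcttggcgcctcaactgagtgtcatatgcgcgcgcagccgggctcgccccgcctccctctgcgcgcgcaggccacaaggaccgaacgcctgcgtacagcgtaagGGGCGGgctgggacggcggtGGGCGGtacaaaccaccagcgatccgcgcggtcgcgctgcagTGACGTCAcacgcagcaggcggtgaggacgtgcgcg

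Capitals in the second set mark CG dinucleotides, to show how far promoters with and without such a region range in CpG content. Fgf5, the growth factor gene that marks the formative epiblast, at chr5:98253934-98254233 (plus strand), has 29 CG dinucleotides in 300 bases. Epcam, an epithelial adhesion gene at chr17:87635729-87636028 (plus strand), has 11 and falls in the CpG-poor class, yet it has an EpiLC-only promoter enhancer as Fgf5 does. Pou3f1, which encodes the formative POU factor OCT6, at chr4:124657396-124657695 (plus strand), has 46 and has none. Pou3f1 was added for contrast after its values were seen.
Fgf5: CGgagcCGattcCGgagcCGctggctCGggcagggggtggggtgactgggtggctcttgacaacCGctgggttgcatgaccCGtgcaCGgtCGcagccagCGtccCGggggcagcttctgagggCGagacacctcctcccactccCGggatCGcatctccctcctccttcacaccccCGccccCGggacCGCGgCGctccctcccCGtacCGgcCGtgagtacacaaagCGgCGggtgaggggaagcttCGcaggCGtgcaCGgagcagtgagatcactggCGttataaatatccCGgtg
Epcam: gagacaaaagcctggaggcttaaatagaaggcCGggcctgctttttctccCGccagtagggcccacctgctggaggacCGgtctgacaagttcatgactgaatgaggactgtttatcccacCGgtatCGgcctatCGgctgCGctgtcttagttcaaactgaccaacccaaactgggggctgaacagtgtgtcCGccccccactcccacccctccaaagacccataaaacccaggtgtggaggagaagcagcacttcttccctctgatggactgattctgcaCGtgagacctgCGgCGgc
Pou3f1: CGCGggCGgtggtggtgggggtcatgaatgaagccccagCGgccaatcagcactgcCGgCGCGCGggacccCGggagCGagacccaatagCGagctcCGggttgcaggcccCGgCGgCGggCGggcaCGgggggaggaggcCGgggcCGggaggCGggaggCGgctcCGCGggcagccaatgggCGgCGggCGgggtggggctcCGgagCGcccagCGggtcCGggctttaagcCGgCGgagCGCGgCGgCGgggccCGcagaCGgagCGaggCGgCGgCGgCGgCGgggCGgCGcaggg

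The regions straddled gene starts closely. Their centres lay at a median of 27 bp downstream of the closest TSS, with quartiles at -262 and 291 bp, and the median distance without regard to side was 276.5 bp. Of the 2548 regions, 1340 (52.6%) were centred downstream and 1955 (76.7%) within 500 bp. The centres thus fell on both sides of the start in similar numbers. The region covered a TSS in 2199 cases (86.3%), and 349 regions lay beside the TSS without covering it. Those that covered one reached a median of 975 bp upstream and 1044 bp downstream of it. In 200-bp steps along the gene, the number of EpiLC-only regions was 490 in the first step after the TSS and 456 in the step before it, and 54 from 1000 to 1200 bp downstream.

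**Figure D1:**
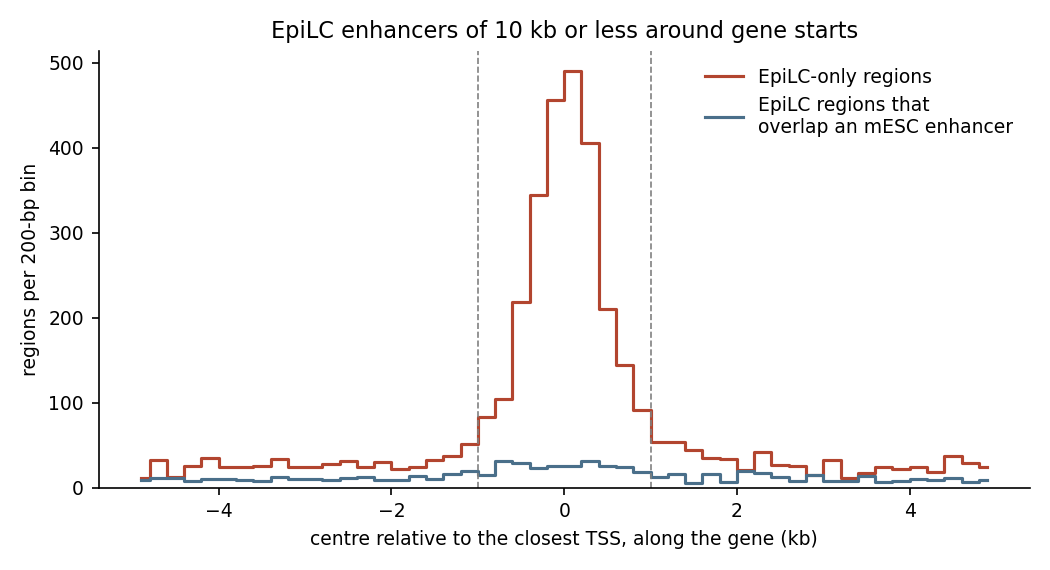
EpiLC enhancers of 10 kb or less per 200-bp bin (y axis) by the position of their centre relative to the closest TSS in kb (x axis), for EpiLC-only regions and for regions that overlap an mESC enhancer. Dashed lines mark 1 kb. The EpiLC-only line reaches 490 regions beside the TSS, while the overlapping line stays between 6 and 32 in every bin.

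Promoters took a larger share of the EpiLC-only list than of the regions that overlap an mESC enhancer. By the same distance and length limits 20.8% of the EpiLC-only regions were at promoters, against 253 of 4112 overlapping regions (6.15%). EpiLC-only regions thus made up 91.0% of the 2801 EpiLC enhancers of 10000 bp or less at promoters. The mESC list itself had only 262 of its 8794 regions at promoters. The shares above depend on what that list holds, so by themselves they do not show a preference of EpiLC-only enhancers for promoters.

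Lengths differed between these sets. The EpiLC-only promoter enhancers had a median length of 1875 bp, with quartiles at 1175 and 2725 bp and extremes of 150 and 9625 bp. The median was 3100 bp for the overlapping promoter regions and 1550 bp for the EpiLC-only regions away from promoters, and 766.5 bp for mESC enhancers at promoters. In the EpiLC list lengths follow a 25-bp grid, with 96.5% of the 2548 regions at a multiple of 25 bp, against 3.44% of the mESC regions at promoters, so lengths cannot be set against each other across the 2 lists. Length bore on whether a TSS was covered: in the lowest length quartile (150 to 1175 bp) 53.3% of the regions covered one, and in the next quartile (1180 to 1875 bp) 92.4%.

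The 5 longest regions lay at a tubulin gene, 2 ribosomal protein genes, a chromatin gene and a microRNA gene. They were 9625 bp at Tubb5, a beta-tubulin gene, 9200 bp at Rpl23a with its intronic small nucleolar RNAs, 9075 bp at Phf21a, which encodes a subunit of a histone demethylase complex, 8725 bp at the microRNA gene Mir130a and 8125 bp at Rps12 with Snora33. At Rpl23a and Rps12 the closest table entry was a small nucleolar RNA. Rows of small RNAs in the gene table give the end of a processed RNA and not of its primary transcript, and 33 of the 2548 regions (1.30%) had no other kind of entry within 1 kb. The closest entry was protein-coding for 2344 regions (92.0%), a long noncoding RNA for 124, a microRNA for 29 and a small nucleolar RNA for 16.

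Most regions served 1 gene start. Within 1 kb of the centre there was 1 TSS for 2170 regions (85.2%), there were 2 for 367 and 3 for 11. The longest of those with 3 lay at the histone genes H2ac13, H2bc13 and H3c10, with 4000 bp. It was followed, in order of length, by a region of 3550 bp at Atf5, which encodes a stress-response transcription factor, Il4i1b and Nup62, which encodes a nuclear pore protein. After these came a region of 3300 bp at H2ac20, H2ac21 and H2bc21, one of 2925 bp at Ermard and 2 unnamed entries, and one of 2900 bp at Nme3, Eme2 and the mitochondrial ribosomal protein gene Mrps34. By the GENCODE M21 annotation the centre fell in a coding exon in 9.18% of the regions, in another exon in 32.7%, in an intron in 27.4% and between genes in 30.7%. For EpiLC-only regions away from promoters those shares were 1.36%, 5.23%, 46.4% and 47.0%.

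The limits of the rule were crowded on the inner side. Between 900 and 1000 bp from the TSS there were 84 centres, and 52 EpiLC-only regions lay between 1000 and 1100 bp. Strn3, with a centre 1000 bp upstream, and Bod1l, at 999 bp, were just inside, and Sft2d3 at 1001.5 bp and Slc12a8 at 1002.5 bp were just outside. The length limit left out 5 regions, the shortest with 10275 bp at Slc2a1, the main glucose transporter gene. The member nearest to an mESC enhancer was 27 bp away from it, at Zfp704, and the smallest overlap that removed a region was 10 bp, at Birc6 and at Serpina3i.

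Promoters under these regions were rich in CpG. The 300-base promoter was called CpG-rich with at least 55% G and C and an observed over expected CpG ratio of at least 0.75, and CpG-poor with a ratio under 0.48. Of 24263 TSSs, 2882 (11.9%) had an EpiLC-only promoter enhancer. CpG-rich promoters made up 51.1% of these 2882 and 25.4% of the 21381 without one, and CpG-poor promoters 14.2% and 50.6%. The median CpG ratio was 0.801 with such a region and 0.469 without, and the median G and C content 61.3% and 54.7%.

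Read from the promoters' side, the share with an EpiLC-only enhancer was 21.3% of the 6901 CpG-rich promoters, 16.3% of the 6125 intermediate and 3.65% of the 11237 CpG-poor ones. By deciles of the CpG ratio it was 1.07% in decile 1, 10.7% in decile 5 and 23.9% in decile 10. For EpiLC regions that overlap an mESC enhancer the share was far lower but also smallest in decile 1. It was 0.412% there, 1.36% in decile 5, 1.78% in decile 9 and 1.32% in decile 10. The 277 TSSs with such an overlapping region were CpG-rich in 37.2% of cases, against 28.4% of all TSSs. A higher share at promoters with more CpG was thus not particular to EpiLC-only regions. The 500 bases around the region's own centre were CpG-rich in 38.1% of the EpiLC-only promoter enhancers, in 19.0% of the overlapping promoter regions and in 1.14% of the EpiLC-only regions away from promoters. Repeats filled 9.58%, 14.4% and 30.6% of those bases on average in the same 3 sets.

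**Figure D2:**
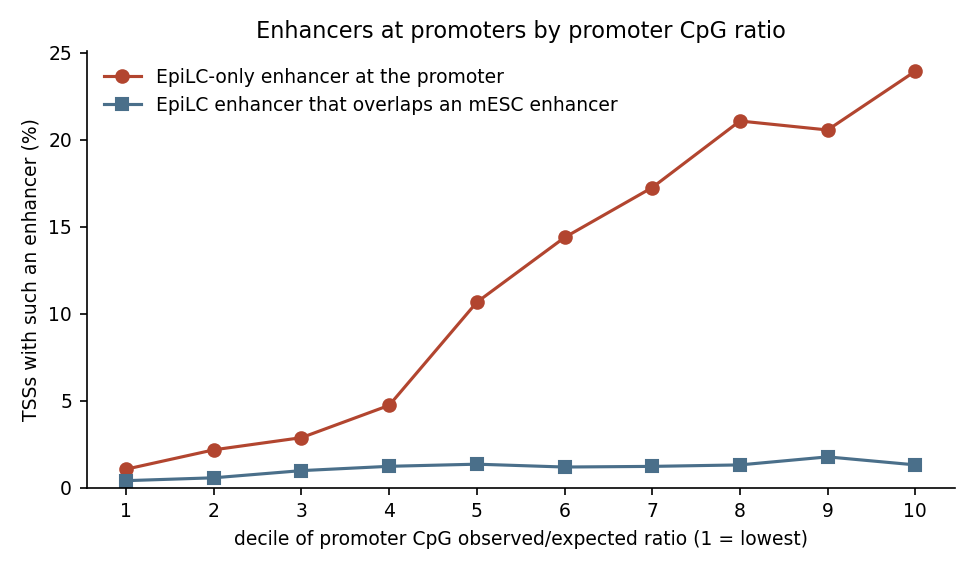
Share of TSSs with an enhancer at the promoter in percent (y axis) by decile of the promoter CpG observed over expected ratio (x axis), for EpiLC-only enhancers and for EpiLC enhancers that overlap an mESC enhancer. The EpiLC-only share is 1.07% in decile 1 and 23.9% in decile 10. The overlapping share is 0.412% in decile 1 and at most 1.78%, in decile 9.

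Divergent pairs, with opposite-strand starts at most 1 kb apart, had a higher share among promoters with a region, but this depends on how a region is assigned. Of the 2882 TSSs with a region 525 (18.2%) were divergent, against 8.08% of those without. A divergent TSS had a region within 1 kb in 23.3% of cases and any other TSS in 10.7%, and among CpG-rich promoters the shares were 25.3% and 20.3%. A region between divergent starts is counted for both of them. When each region was counted only for its closest TSS, 12.0% of divergent and 10.1% of other TSSs had one. Among CpG-rich promoters the order turned, with 13.0% of divergent and 19.5% of other TSSs. This second count credits a region between divergent starts to only 1 of them, which lowers the divergent share by construction. The turned order therefore does not show that divergent pairs had fewer regions, and neither count decides the question. Counted by region, 271 of 2548 (10.6%) had a divergent TSS as the closest.

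Motif letters of several housekeeping factors had higher shares in promoters with a region, and those of ETS, NRF1 and YY1 showed the widest ratios of the 13 motifs. Motifs were sought as exact letters on both strands of the 300 bases, and a match says only that the letters are there. The ETS letters, as printed for Mrps27 and Psmb7, occurred in 10.6% of promoters with a region and 4.09% of those without. The NRF1 letters, as in Polr2b, occurred in 5.03% and 1.88%, and the YY1 letters in 4.55% and 1.50%. In all promoters the shares were 4.86% for ETS, 2.25% for NRF1 and 1.86% for YY1. At least one of the 3 was present in 18.7% of promoters with a region and 7.14% of those without.

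The NRF1, ETS and YY1 letters contain CG, so the shares were also taken within CpG-rich promoters, where the gaps were narrower. There the shares with and without a region were 12.2% and 8.34% for ETS, 6.59% and 4.24% for NRF1, and 6.05% and 3.06% for YY1. The SP/KLF letters, which lie under many housekeeping promoters, showed no gap within the CpG-rich class. They occurred in 66.3% and 41.3% of all promoters with and without a region (44.2% of all), and within CpG-rich promoters in 79.8% and 81.8%. Put the other way, 34.9% of the 255 CpG-rich promoters with YY1 letters had a region, as did 20.8% of those without the letters. CpG-rich promoters with NRF1 letters had a region in 29.7% of cases and those with ETS letters in 28.4%.

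Other motifs differed less. The E-box (CACGTG), bound by USF and MYC proteins, was in 10.9% of promoters with a region and 7.36% without, and in 7.78% of all. For NFY the shares were 11.3% and 8.41% (8.76% of all), for CREB and ATF factors 3.78% and 2.15% (2.35% of all), and for E2F (TTTCCCGC) 2.43% and 1.17% (1.32% of all). For ZNF143 (ACTACAA) they were 3.99% and 3.55% (3.60% of all), and for CTCF (AGGGGGCGC) 2.22% and 1.41% (1.51% of all). Letters of factors tied to the epiblast state were, in promoters with a region, about as rare as those of E2F and CTCF. The POU octamer was in 2.19% and 1.65% (1.71% of all) and the OTX letters (CTAATCC) in 2.26% and 2.04% (2.06% of all). GATA letters (AGATAAG) were in 1.73% and 2.74% (2.62% of all), the one motif of the 13 that was less frequent with a region over all promoters. Within CpG-rich promoters the order turned for 3 of these motifs, with 3.06% with and 3.54% without a region for CTCF, 1.29% and 1.36% for OTX, and 1.02% and 0.682% for GATA.

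**Figure D3:**
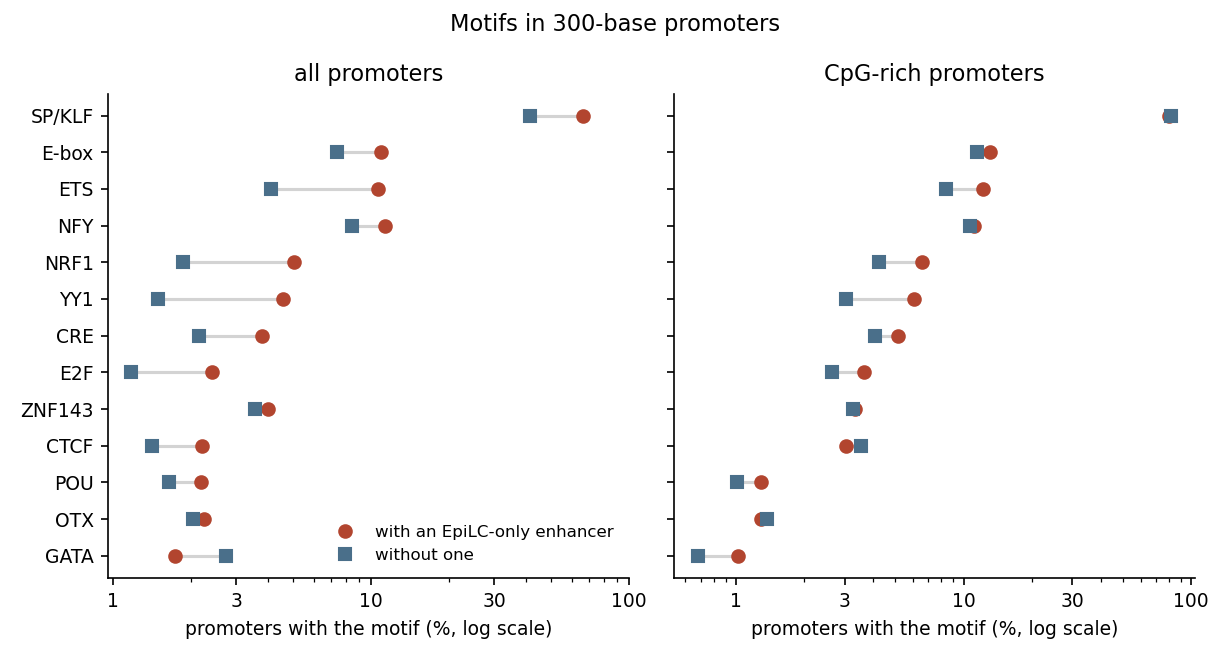
Promoters that hold each of 13 motifs in percent (x axes, log scale), with and without an EpiLC-only enhancer, over all promoters (left) and over CpG-rich promoters (right). The ETS points stand at 10.6% and 4.09% on the left and at 12.2% and 8.34% on the right, and the SP/KLF points at 79.8% and 81.8% on the right.

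The 500 bases around the centres gave a different picture away from promoters. ETS letters were in 7.26% of EpiLC-only promoter enhancers, against 3.16% of the overlapping promoter regions and 1.02% of EpiLC-only regions away from promoters. NRF1 letters were in 3.92%, 1.58% and 0.310% of these sets. YY1 letters did not follow that order, with 4.71%, 0.791% and 7.45%. Octamer letters were in 2.16%, 5.53% and 4.95%, and OTX letters in 3.69%, 5.53% and 5.44%. Promoter sequence at the TSS gave another order for YY1 letters. They were in 5.05% of TSSs with an overlapping region (14 TSSs) and in 4.55% of those with an EpiLC-only one. ETS letters were there in 4.33% and 10.6%, and NRF1 letters in 3.25% and 5.03%. The low YY1 share of overlapping promoter regions was thus not seen in promoter sequence.

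Which genes carried these regions was counted over 39 gene lists, set beside all 23745 named genes, of which 12.0% had one. Genes with a CpG-rich promoter had one in 21.4% of cases, 1.16% of named genes had an EpiLC promoter enhancer that overlaps an mESC enhancer, and the TSS of 14.2% was covered by an EpiLC enhancer of any kind or length. Together 469 distinct genes of the lists had an EpiLC-only promoter enhancer. The highest shares were those of replication-dependent histone genes, chaperonins, the spliceosome and cytosolic ribosomal proteins, and 5 lists had 0 genes with a region. That order depends on the starts used. With the starts of every GENCODE M21 transcript, an alternative chosen after seeing the data, 14.6% of named genes had a region, cytosolic ribosomal genes led with 56 of 89 (62.9%), histone genes had 28 of 58, and 4 lists had 0 genes.

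**Figure D4:**
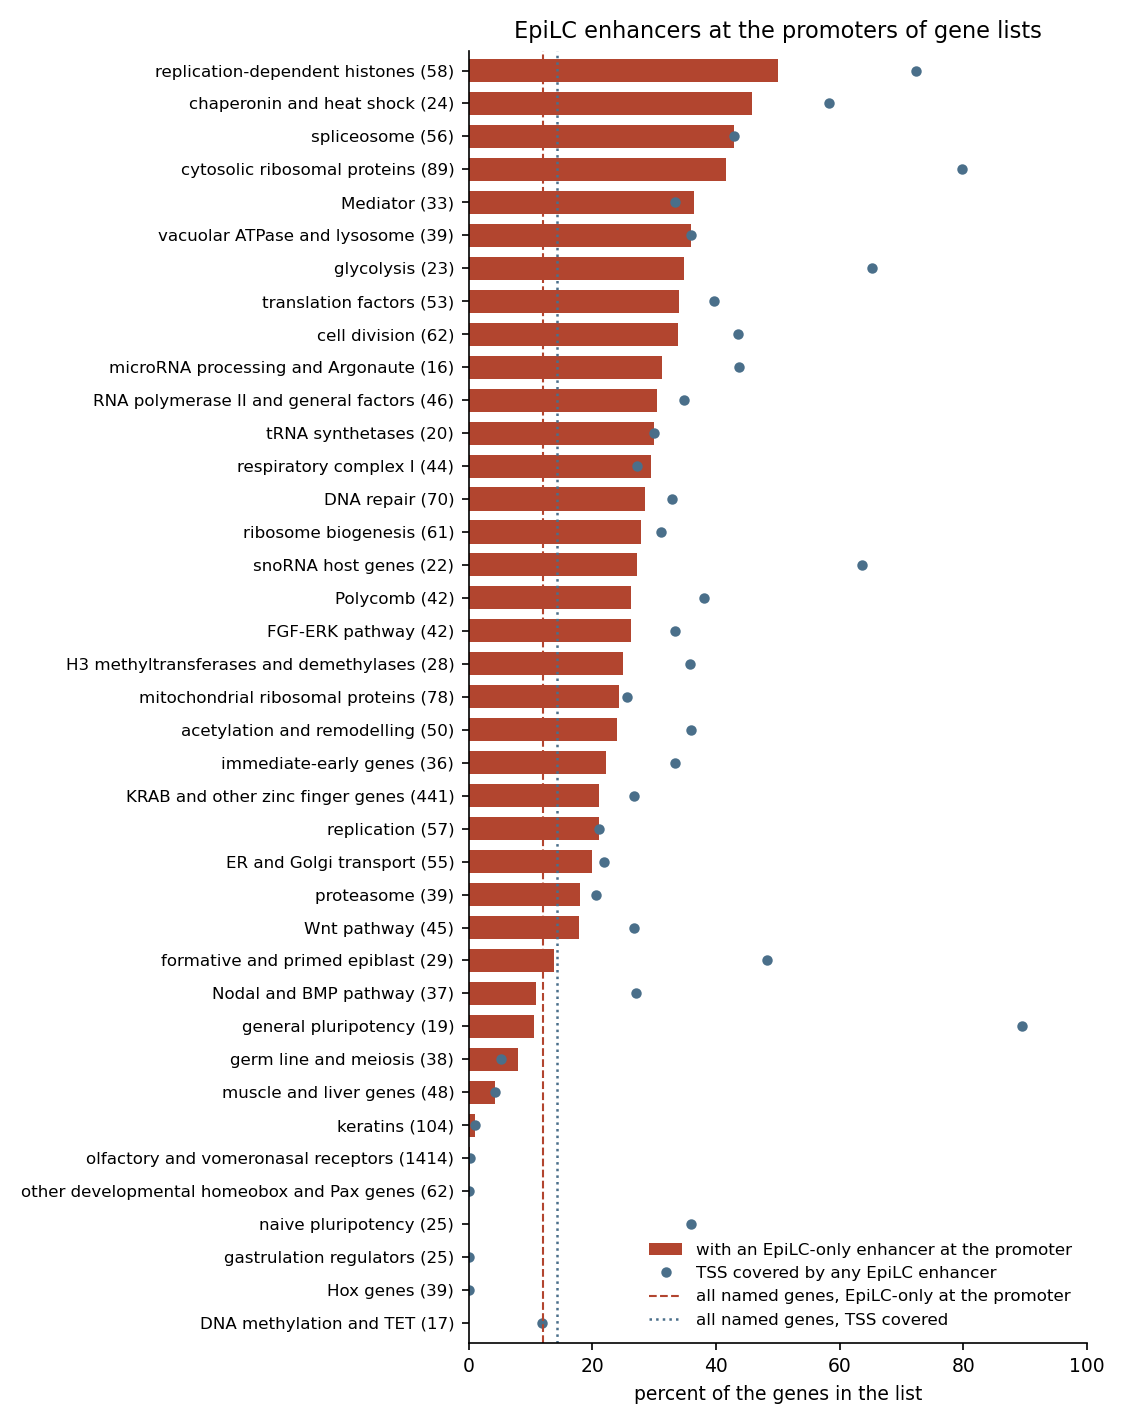
Percent of the genes of each list (x axis) with an EpiLC-only enhancer at the promoter (bars) and with a TSS covered by any EpiLC enhancer (points), with the number of genes in brackets. Vertical lines mark all named genes, at 12.0% and 14.2%. Histone genes lead at 50% and 5 lists have no bar.

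Genes of the cytosolic ribosome had a region in 37 of 89 cases (41.6%), and in 56 of 89 with GENCODE M21 starts. The regions were long, with a median of 3550 bp against 1875 bp over all, and 31 of the 37 were centred downstream of the TSS (83.8%, against 52.6% over all). Their median distance was 601.5 bp, against 276.5 bp. Side and distance were taken from the ribosomal gene's own TSS, but over all regions from the closest TSS of any gene. The measures can differ at 12 of the 37 genes, where more than 1 TSS lay within 1 kb. Rpl10, a protein of the large subunit, had a 3700-bp region centred 89.5 bp upstream of the TSS, Rpl39l one of 825 bp at 136 bp downstream, and Rpl7l1 one of 2700 bp at 179.5 bp downstream. The distance limit left out many others: the TSS of 71 of the 89 genes (79.8%) lay inside some EpiLC enhancer. Of these, 40 lay in an EpiLC-only promoter enhancer and 26 in an EpiLC-only region centred elsewhere. Another 3 lay in a region of 10000 bp or less that overlaps an mESC enhancer, and 2 in a longer region, with or without such overlap.

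Other genes of protein synthesis followed with lower shares. Translation factors had a region in 18 of 53 cases (34%), and 13 of the 18 were centred downstream. Eif3m, a subunit of the initiation factor that binds the small ribosomal subunit, had a region centred 8.5 bp from the TSS, Eif4a3, an RNA helicase of the exon junction complex, one at 29 bp, and Eif2s2, the beta subunit of the factor that delivers initiator tRNA, one at 67 bp. Ribosome biogenesis genes numbered 17 of 61 (27.9%), among them Ddx56, Tsr1 and Pes1, and tRNA synthetases 6 of 20 (30.0%), among them Hars, Vars and Farsa. Host genes of small nucleolar RNAs had 6 of 22 (27.3%; 11 with GENCODE M21 starts), among them Snhg1, Snhg9 and Snhg17, while 14 of the 22 (63.6%) had a covered TSS.

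In mitochondria, 19 of 78 ribosomal protein genes (24.4%) and 13 of 44 genes of respiratory complex I (29.5%) had a region. Mrps27, Mrpl39 and Mrpl58 had theirs centred 3, 37 and 37 bp from the TSS. Ndufb8, Ndufaf5 and Ndufa11, which encode a subunit, an assembly factor and a subunit of complex I, had theirs at 3, 5.5 and 14.5 bp. The complex I regions were centred at a median of 91 bp from the TSS and had a median length of 1550 bp. Of the 19 mitochondrial ribosomal genes, 8 were in divergent pairs, where a region can be counted for both starts. Over all TSSs with a region the divergent share was 18.2%, and over all TSSs 9.29%. Mitochondrial ribosomal genes without a region were not counted in this way. The region at Mrpl49 was the same one as at Fau, printed above.

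Protein folding, turnover and RNA splicing were covered unevenly. Chaperonin and heat shock genes had a region in 11 of 24 cases (45.8%), from 10 distinct regions, since 1 region of 3925 bp lay between the divergent genes Hspd1, which encodes the mitochondrial chaperonin, and Hspe1, which encodes its co-chaperonin. Cct6a and Tcp1, subunits of the cytosolic chaperonin, and Hspa9, a mitochondrial heat shock protein, had centres within 15 bp of the TSS. Spliceosome genes had one in 24 of 56 cases (42.9%), with Dhx8, an RNA helicase, at 17 bp, Snrpa1, a protein of the U2 particle, at 28 bp, and Srsf10, a splicing regulator, at 44.5 bp. Proteasome genes had one in 7 of 39 cases (17.9%), among them Psmb7, Psma8 and Psmc3. Within CpG-rich promoters the shares were 50.0% for chaperonin and heat shock, 42.5% for spliceosome and 14.3% for proteasome genes. All named genes of that class had 21.4%.

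Metabolic and secretory genes ranged from 20.0% to 35.9%. Genes of the vacuolar ATPase and lysosome had 14 of 39 (35.9%), with Atp6v0c and Atp6v1b2 of the proton pump and Lamtor1 of the complex that tethers mTORC1 to lysosomes nearest to their regions' centres. Glycolysis genes had 8 of 23 (34.8%), among them Pgk1, Ldhb and Pfkl, and a covered TSS in 15 (65.2%). Genes of transport through the endoplasmic reticulum and Golgi had 11 of 55 (20.0%), among them Arf4, Sec61a1 and Arf1.

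Replication-dependent histone genes are clustered and make the bulk of histones in S phase. Their list had a region in 29 of 58 cases (50.0%), from 18 distinct regions. The list also takes in H1f10, a linker histone gene not tied to replication, and the testis histone genes H2ac1 and H2bc1, each with a region. A region of 3300 bp was centred 2.5 bp from the TSS of H2bc4 and also served its divergent neighbour H2ac6, and H3c1 and H4c11 had regions centred 22 and 105 bp from the TSS. Only 2 of the 58 promoters were CpG-rich. NFY or POU letters were in 14 of the 29 histone promoters with a region and in 13 of the 29 without one. The coding sequences of histone genes are near copies of each other, and how reads were placed among them in the source study was not tested.

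General transcription genes were among those with a region: 14 of 46 of RNA polymerase II and its general factors (30.4%) and 12 of 33 of Mediator (36.4%). Polr2b had a region of 875 bp centred 5 bp from the TSS, Gtf2b, the factor TFIIB, one of 1000 bp at 70.5 bp, and Polr2k, a subunit shared by all 3 nuclear RNA polymerases, one of 1025 bp at 154 bp. Med25, Med21 and Med17 had centres 85, 110 and 172 bp from the TSS, and Med1, the subunit immunoprecipitated in the study, had a region of 3075 bp at 446 bp upstream.

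Chromatin regulators, the subject of the study, had shares from 24.0% to 26.2% in 3 lists and 0 in the list of DNA methylation, values that depend on the starts used. Within CpG-rich promoters, 21.4% of all named genes had a region. In that class the share was 27.6% for Polycomb genes and 35.7% for H3 methyltransferases and demethylases. It was 24.3% for acetylation and remodelling genes and 0 for DNA methylation genes. Of 42 Polycomb genes 11 (26.2%) had a region: Skp1a, Suz12 and Rbbp4, nearest to their regions' centres, then Phf1, Rbbp7, Ezh1, Max, L3mbtl2, Mga, Aebp2 and Cbx6. Suz12, the core PRC2 subunit that was knocked out in some lines, had a region of 3275 bp centred 117 bp upstream, and Rbbp4, a histone-binding subunit of several complexes, one of 3225 bp at 144 bp upstream. The list named for H3 methyltransferases and demethylases had 7 of 28 genes with a region (25%; 11 with GENCODE M21 starts), among them Kdm5a, Setd1a and Men1. Not every gene of that list need encode such an enzyme itself. Acetylation and remodelling genes had 12 of 50 (24.0%; 19 with GENCODE M21 starts), among them Kat8, Brd9 and Kat6b. Genes of DNA methylation and its removal had 0 of 17, with 2 of the 17 TSSs covered by an EpiLC-only region centred elsewhere, and 5 of 17 with GENCODE M21 starts.

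Genes of the cell cycle had a region in 21 of 62 cases (33.9%). Anapc13 and Anapc7, subunits of the anaphase-promoting complex, had centres 43 and 82.5 bp from the TSS and Cenpe, a kinetochore motor, one at 86.5 bp. DNA repair genes had 20 of 70 (28.6%), with Rad23b, Atm and Parp1 nearest. Replication genes had 12 of 57 (21.1%), with Pole4, Orc3 and Rfc4 nearest. Immediate-early genes had 8 of 36 (22.2%), with Ier5, Klf10 and Ier2 nearest, and genes of microRNA processing 5 of 16 (31.3%), with Tnrc6a, Prkra and Ddx5 nearest. Within CpG-rich promoters the shares were 31.6% for cell cycle, 32.6% for DNA repair and 26.3% for replication genes. Immediate-early genes of that class had 23.8% and microRNA processing genes 25%, close to the 21.4% of all its named genes.

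The naive pluripotency list had 0 of 25 genes with an EpiLC-only promoter enhancer. Klf2, Tcf7l1, Dppa2, Dppa4, Zfp42, Fbxo15, Nanog, Dppa5a and Sox15 had a TSS inside an EpiLC enhancer (9 of 25, 36.0%), which overlapped an mESC enhancer at all of them but Sox15, where it was centred elsewhere. By the distance rule 4 of the 25 genes had an overlapping promoter region. An mESC enhancer lay within 50 kb of 22 of the 25 TSSs (88.0%, against 36.0% of all named genes). The rule that removes mESC overlap bears directly on this list, which was drawn from genes active in mESCs.

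Formative genes had a region in 4 of 29 cases (13.8%), close to the 12.0% of all named genes. At Fgf5 it was 5925 bp long and centred 205 bp downstream of the TSS. Cldn6, a tight junction gene, had 1375 bp at 124 bp downstream, Fgf15, a secreted growth factor gene, 1325 bp at 793 bp upstream, and Sall2, a zinc finger gene, 4656 bp at 940.5 bp downstream. The TSS was covered by some EpiLC enhancer at 14 of the 29 genes (48.3%). At 3 of them that enhancer was over 10000 bp and also overlapped an mESC enhancer, as with the 18575-bp region at Otx2. At another 6 it was shorter and overlapped an mESC enhancer. An EpiLC-only enhancer away from promoters lay within 50 kb of 24 of the 29 (82.8%, against 37.6% of all named genes), with 7 around Pou3f1 and 3 around Fgf5.

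General pluripotency genes had 2 of 19 (10.5%; 4 with GENCODE M21 starts), Lin28b with 1625 bp at 412 bp downstream and Epcam with 3550 bp at 522.5 bp downstream. Their TSS was nevertheless inside an EpiLC enhancer in 17 of 19 cases (89.5%). That enhancer was over 10000 bp and overlapped an mESC enhancer at 7 of them. It was shorter and overlapped one at another 5, and was EpiLC-only but centred elsewhere at 3. Pou5f1 lay in a region of 11575 bp, Sox2 in one of 9950 bp and Lin28a in one of 4700 bp.

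Signalling lists ranged from 10.8% to 26.2%. Within CpG-rich promoters the shares were 24.1% for FGF-ERK, 18.5% for Wnt and 12.5% for Nodal and BMP genes. All named genes of that class had 21.4%. FGF-ERK genes had 11 of 42 (26.2%), with the region at the kinase gene Map2k1 centred 28.5 bp from the TSS. Wnt genes had 8 of 45 (17.8%), with Dvl2, Tcf7l2 and Tle3 nearest, and Nodal and BMP genes 4 of 37 (10.8%), namely Smad6, Smad3, Bmpr1a and Foxh1. KRAB and other zinc finger genes had 93 of 441 (21.1%), with Zfp655, Zfp119a and Zfp512 centred at most 3 bp from the TSS.

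Regulators of later development, most of them known as Polycomb targets in pluripotent cells, had none: 0 of 39 Hox genes, 0 of 62 other homeobox and Pax genes and 0 of 25 gastrulation regulators, and the TSS of none of these was covered by any EpiLC enhancer. That held although 12, 28 and 8 of their promoters were CpG-rich, a class with a region in 21.4% of all named genes. Tissue genes had low shares, with 2 of 1414 olfactory and vomeronasal receptors (0.141%, Olfr1033 and Olfr212), 1 of 104 keratins (0.962%, Krt12) and 2 of 48 muscle and liver genes (4.17%, Mylpf and Myf6). Only 1, 1 and 0 promoters of these lists were CpG-rich. Over all TSSs, 16.3% of intermediate and 3.65% of CpG-poor promoters had a region. The muscle and liver share was thus not below that of CpG-poor promoters. Whether the low shares go beyond promoter class was not tested. Germ line genes had 3 of 38 (7.89%; 5 with GENCODE M21 starts), Tex19.1, Zp3 and Tex14, and the region at Tex14 was that of its divergent neighbour Rad51c.

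Enhancers in the surroundings were counted as well. An EpiLC-only enhancer away from promoters lay within 50 kb of 49.1% of TSSs with a region and 35.8% of TSSs without, and an mESC enhancer within 50 kb of 44.4% and 34.5%. Among CpG-rich promoters those shares were 46.5% and 41.0%, and 43.1% and 42.0%, so within that class the mESC enhancers around the 2 kinds of promoter differed little in number. The gap to the nearest mESC enhancer had a median of 59.9 kb for EpiLC-only promoter enhancers and 58.6 kb for EpiLC-only regions away from promoters. By chromosome, 2.79% of TSSs on X had a region, against 9.66% to 15.9% on the autosomes, and within CpG-rich promoters 6.52% on X, against 15.8% to 27.9%. The 26 regions on X included those at Rpl10, Med12, Pgk1 and Rbbp7. Chromosome 11 had the most regions, 257.

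The deposited EpiLC list is not in genome order, and its order went with promoters. EpiLC-only promoter enhancers were 64.5% of the regions of 10000 bp or less in the opening decile of the list by file order, 36.2% in decile 2, 6.13% in decile 5 and 2.72% in decile 10. In all, 2296 of the 2548 (90.1%) stood in the upper 5 deciles, against 42.4% of the EpiLC-only regions away from promoters and 75.9% of the overlapping promoter regions. Within the promoter regions, the share that was CpG-rich at the closest TSS was 65.0% in decile 1 and 4.44% in decile 10, and the median length 2262.5 bp and 650 bp. What the list is sorted by is not given in the sources used here, so a place in it is given as a place and not as a strength.

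**Figure D5:**
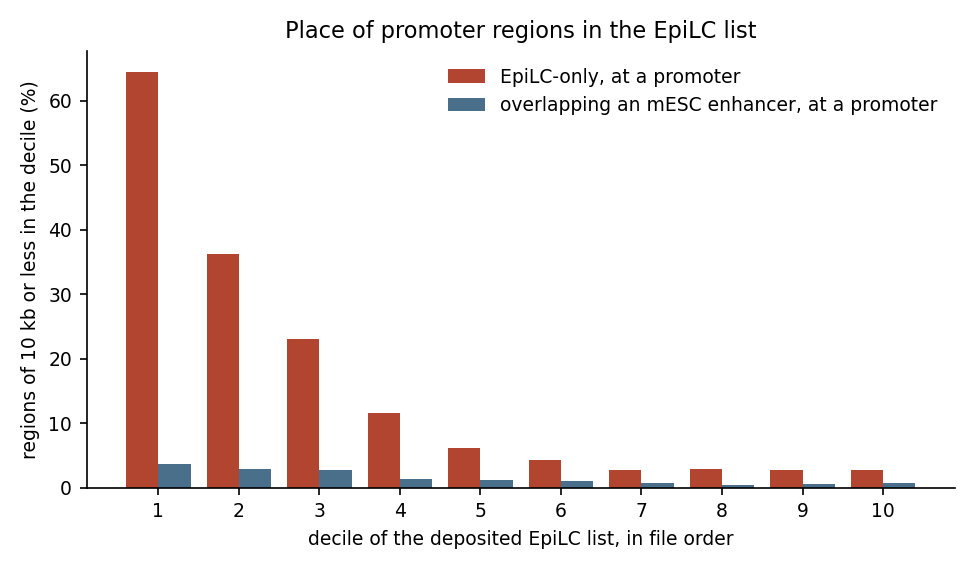
Percent of the regions of 10 kb or less (y axis) in each decile of the deposited EpiLC list in file order (x axis) that are EpiLC-only promoter enhancers or promoter regions overlapping an mESC enhancer. The EpiLC-only bars stand at 64.5% in decile 1 and 2.72% in decile 10, the overlapping bars at 3.74% and 0.785%.

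Named genes sat at very different places in that order. The first EpiLC-only promoter enhancer was at Dstn, an actin-severing protein gene, on row 7 of 16576, followed by the histone gene H2ac10 on row 8, Myl12a, a myosin light chain gene, on row 9 and H2ac13 on row 10. Gapdh was on row 53, H2bc4 on row 72 and Rpl10 on row 856. Histone genes had a median place at 0.362% of the list and cytosolic ribosomal genes at 5.22%, against 13.1% for all EpiLC-only promoter enhancers. The list medians are over genes, so the 18 histone regions entered once for each of their 29 genes. The 13.1% counts each region once. Formative genes had a median place at 44.1%, with Cldn6 on row 5315, Sall2 on row 5967, Fgf15 on row 8648 and Fgf5 on row 10506. Lin28b was on row 313 and Epcam on row 755.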

How the data were processed

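The deposited files are 3 region lists in mm10 with 4 columns each (chromosome, start, end and strand). Their values are coordinates of another kind than a signal, and per the series' design text the authors lifted the 2 enhancer lists over from earlier publications and took the non-redundant UCSC genes from earlier work. Tools listed in the submitters' processing notes are bedtools 2.29.2, Bowtie2 2.3.4.1 and Trimmomatic 0.38, with no role given. Signal per library was not analysed here, so mutant and control libraries were not compared.

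Starts were read as counted from 0. Of 24402 gene rows, 24263 were kept after duplicates and scaffold rows were left out, and 23798 were named from RefSeq or GENCODE M21. For list counts with GENCODE M21, genes under an older symbol there were matched through RefSeq synonyms where both lie at the same place, which found all 58 histone genes. Overlap meant at least 1 shared base. Promoter sequence came from GRCm38.p6, the same assembly as mm10, through samtools 1.23.1, and counts were made with Python 3.11.15 and pandas 2.3.3. The functions for overlap, distance, motifs and divergent pairs were tested on simulated data.

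The regions, gene lists and motifs were chosen with earlier results of these data known. Genes were named by a rule: up to 3 of each list nearest to a region's centre, every naive and formative gene with a region, the longest regions and those with most TSSs. Further genes in the text (other Polycomb genes, Mrpl49, Hspe1, Hspd1, Med1, Gapdh, Pou3f1 and genes with a covered TSS) were chosen after their values were seen. Some genes that the rule names are not reported here.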

Additional observations from a re-analysis of the deposited data

How the results depend on the processing

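No paired analysis was possible because the lists hold no value per library. The number of EpiLC-only promoter enhancers, 2548, was between 1955 and 3630 under the 10 alternatives tried (3630 with the TSSs of GENCODE M21), within 1.5 times of it. The share of TSSs with a region, 11.9%, was 8.89% with centres within 500 bp and 9.51% with regions of 3000 bp or less. The median length was 1800 bp and 1600 bp under the same limits. The share of regions with a divergent closest TSS, 10.6%, was 9.26% when starts had to lie within 500 bp. The share with a CpG-rich promoter, 50.0% of regions by the 300-base promoter, was 38.1% in the 500 bases around the centre. NRF1, ETS or YY1 letters were in 18.7% of the 2882 TSSs with a region, over 300 bases. They were in 14.4% of the 2548 regions, over 500 bases around the centre, so unit and window both differ. The cause of these 2 differences was not tested. The share centred downstream stayed between 52.2% and 52.6%. The number of distinct list genes with a region, 469, was 454 when the region had to cover the TSS, 503 with any EpiLC enhancer of 10000 bp or less at the promoter, and 552 with GENCODE M21 starts, an alternative chosen after seeing the data. With those starts 7 of 39 lists moved by over 1.5 times, each upwards: cytosolic ribosomal genes (56), small nucleolar RNA hosts (11), H3 methyltransferases and demethylases (11), acetylation and remodelling (19), DNA methylation (5), general pluripotency (4) and germ line (5). Depth is unknown, and no alternative bears on how either source study called its enhancers.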
